A study of Mus musculus with 6 samples.

Results

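DNA methylation at genes of the insulin and insulin-like growth factor (IGF) axis was set side by side in normal and tumorous livers of C3H mice. The axis was taken as 10 genes: the ligands Igf1 and Igf2, the carrier proteins Igfals, Igfbp1 and Igfbp3, the receptors Insr, Igf1r and Igf2r, and the receptor substrates Irs1 and Irs2. Of the 14176 differentially methylated regions in the authors' deposited table, 9 belonged to these genes. For 7 of them the gene had the nearest listed transcription start site (TSS), and 2 more were listed under a neighbour but lay inside Irs2 and Igf2r by position. The tissue was liver of male C3H/HeN mice aged 74 weeks, an inbred strain in which males are prone to liver tumors without treatment. The normal group held 3 livers, and the tumor group held 3 macroscopic liver tumors, each with a Ha-ras mutation, which activates the Ras oncoprotein. All animals belonged to the control arm of a project on gestational arsenic exposure, in the F2 generation. Methylation was read by reduced representation bisulfite sequencing (RRBS), in which MspI cuts the DNA at CCGG and bisulfite lets unmethylated cytosine be read as T. Each region carries 1 value, the mean difference in percent methylation (tumor minus normal, in percentage points), and neither the level in each group nor any value per animal is given with it. The differences below therefore stand without a spread between animals or a test, and the read depth behind each is unknown beyond the authors' minimum. Liver identity and tumor content could not be checked against marker genes, since no expression value was used here.

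Insulin and the IGFs act through related receptor tyrosine kinases, which phosphorylate the substrates Irs1 and Irs2 and so engage the PI3K and AKT kinases. Hepatocytes are the main source of circulating Igf1, and they also secrete Igfals and Igfbp1. Igfals is the acid-labile subunit that holds Igf1 and Igfbp3 together in a ternary complex in blood, and it is made under the control of growth hormone. Igf2 and Igf2r are imprinted in the mouse, Igf2 being expressed from the paternal allele and Igf2r from the maternal one.

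Of the 9 regions, 3 had gained methylation in the tumors and 6 had lost it. The gains lay in the 3′ untranslated region (UTR) of Irs2 (51.4 points), over most of the coding sequence of Igfals (38.7 points) and in intron 1 of Insr (32.8 points). The losses lay in intron 2 of Igfbp1 (-29.0 points), far upstream of Irs2 (-28.7 points), in the coding exon of Irs1 (-28.1 points), upstream of Igf1r (-27.8 points), in intron 2 of Igf1r (-24.3 points) and across an intron and an exon of Igf2r (-20.6 points). No region was listed under Igf1, Igf2 or Igfbp3, nor did one lie inside them.

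The reference sequence under 5 of the regions is printed to show where their CpG sites lie. These are the coding exons of Igfals and Irs1 with the most cytosines, the intronic gain of Insr, and the losses of Igfbp1 and Igf2r in full. For the first 3 genes the window of 240 bases with the most CpG dinucleotides is given (for Igfals, within its coding part), holding 13 CpG in Igfals, 11 in Irs1 and 7 in Insr. The whole regions of Igfbp1 (90 bases) and Igf2r (226 bases) hold 5 and 4. The stretches differ in length and the windows of 240 bases were picked for the most CpG. The counts therefore do not rank the 5 regions by density. The sequences are from RefSeq for GRCm38 (mm10), a C57BL/6J reference, read 5′ to 3′ along the strand of the gene, with each CpG in capitals. Single bases can differ in C3H/HeN, and which of these CpG cytosines were measured is not given in the table.
Igfals, plus strand, chr17:24880620-24880859: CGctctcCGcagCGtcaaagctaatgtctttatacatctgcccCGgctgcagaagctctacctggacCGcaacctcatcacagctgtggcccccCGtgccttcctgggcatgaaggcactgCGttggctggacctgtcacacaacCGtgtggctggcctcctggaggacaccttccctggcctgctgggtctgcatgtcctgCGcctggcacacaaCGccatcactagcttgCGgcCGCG
Irs1, minus strand, chr1:82289153-82289392: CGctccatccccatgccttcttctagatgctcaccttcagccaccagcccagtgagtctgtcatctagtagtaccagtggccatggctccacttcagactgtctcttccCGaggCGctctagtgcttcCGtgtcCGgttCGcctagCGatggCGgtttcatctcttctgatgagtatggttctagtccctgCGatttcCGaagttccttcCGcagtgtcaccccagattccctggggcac
Insr, minus strand, chr8:3270115-3270354: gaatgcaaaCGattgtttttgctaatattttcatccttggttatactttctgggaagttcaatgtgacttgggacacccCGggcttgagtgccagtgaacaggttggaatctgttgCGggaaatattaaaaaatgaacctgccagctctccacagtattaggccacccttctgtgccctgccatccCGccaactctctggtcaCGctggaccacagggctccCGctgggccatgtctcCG
Igfbp1, plus strand, chr11:7200539-7200628: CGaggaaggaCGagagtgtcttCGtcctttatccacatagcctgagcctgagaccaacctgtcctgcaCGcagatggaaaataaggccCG
Igf2r, minus strand, chr17:12726190-12726415: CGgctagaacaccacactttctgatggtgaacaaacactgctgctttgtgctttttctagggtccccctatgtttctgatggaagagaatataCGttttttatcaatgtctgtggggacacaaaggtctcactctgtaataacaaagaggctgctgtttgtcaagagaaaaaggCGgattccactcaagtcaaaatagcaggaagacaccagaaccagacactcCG

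**Figure D1:**
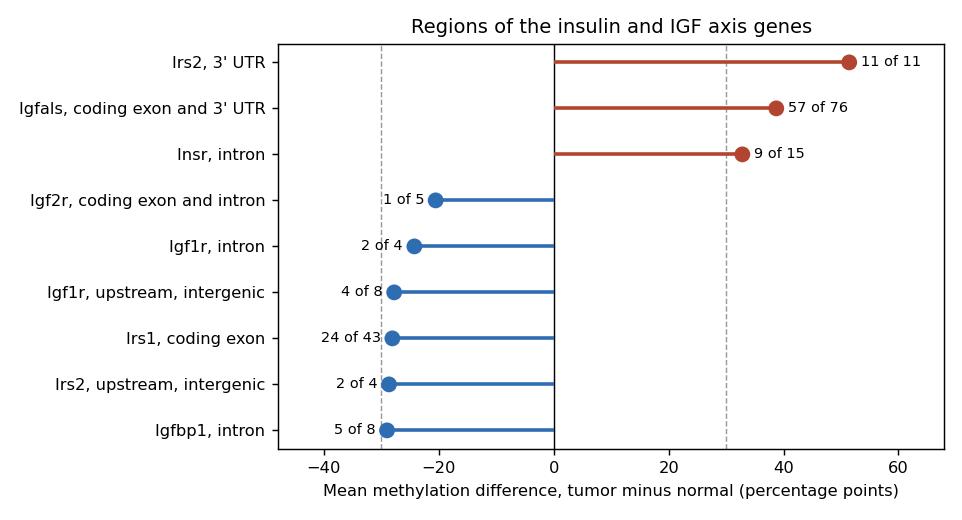
Mean methylation difference (horizontal axis, tumor minus normal, percentage points) of the 9 regions, 1 line each, gains in red and losses in blue, with the number of differentially methylated cytosines of all measured CpG cytosines beside each point and dashed lines at 30 points in either direction. The 3 gains, from 32.8 to 51.4 points, lie outside the dashed lines and the 6 losses, from -20.6 to -29.0 points, inside them.

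The widest of the 9 regions was that of Igfals. It covered 1793 bp at chr17:24880339-24882131 and began 1569 bp downstream of the listed TSS. Igfals has 2 exons, and the region lay in the second, where it took in 1410 bp of coding sequence, 263 bp of 3′ UTR and 120 bp beyond the end of the gene. These 1410 bp are 77.8% of the coding length of 1812 bp in transcript NM_008340.4. The table counts 76 CpG cytosines in it, each strand counted apart, which is 62.3% of the 122 that its 61 CpG dinucleotides offer. Of the 76 cytosines, 57 (75.0%) were differentially methylated cytosines (DMCs), the single sites that passed the authors' thresholds. By number of cytosines it had rank 53 of the table, and 99.6% of the regions had fewer. Among the gains, 83.0% were smaller than the 38.7 points of Igfals. Its observed to expected CpG ratio was 0.400, against a median of 0.424 over all regions. This ratio corrects for base composition and is not a density. All regions begin and end in a CpG, which weighs more in short ones, so ratios of regions of unlike length are not strictly comparable.

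The regions most like that of Igfals in number of cytosines, among gains within 5 points of it, were those listed under A730090H04Rik, Usp35 and Dusp8. The Dusp8 region, in a gene for a phosphatase of MAP kinases, gained 39.7 points over 80 cytosines, 70 of them DMCs, and all of its 799 bp were coding, 12462 bp downstream of the TSS. Usp35, which encodes a deubiquitinase, gained 34.5 points over 78 cytosines in a region that overlapped the TSS and took in 720 coding bp. The region listed under A730090H04Rik gained 33.7 points over 74 cytosines and lay 1416 bp upstream of the listed TSS. It was intronic in the annotation, which counts introns of any gene. Their CpG ratios were 0.651, 0.885 and 0.628, all above the 0.400 of Igfals.

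Igfbp1 encodes a small binding protein that hepatocytes release when insulin is low. Its region was the smallest of the 9, 90 bp at chr11:7200539-7200628 in intron 2 of 3, and began 2752 bp downstream of the TSS. The difference was -29.0 points, with 5 of 8 cytosines called as DMCs, and its CpG ratio of 0.75 was above the median of the table. Igfbp3, the main carrier of IGFs in blood, lies tail to tail with Igfbp1 on the same chromosome, and the Igfbp1 region was also the nearest one to it, 5458 bp beyond its 3′ end. Within 150 kb of Igfbp3 there were 5 regions, the same 5 as within 150 kb of Igfbp1. All were losses, from -23.7 to -37.1 points, in a table where gains made up 14.9%. The largest of these, over 3 cytosines, was listed under Adcy1.

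**Figure D2:**
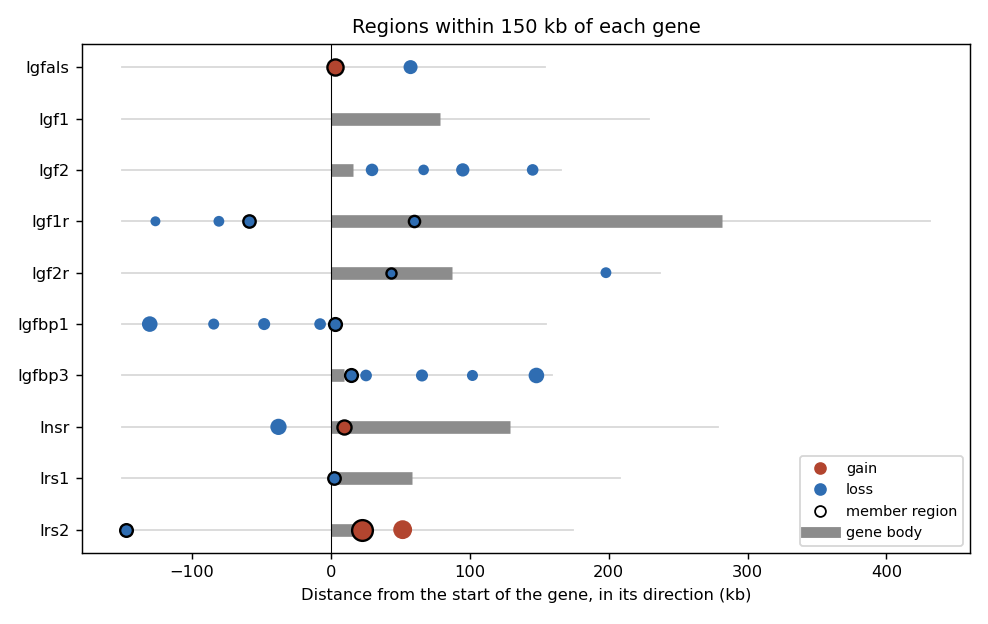
Regions of the table within 150 kb of each of the 10 genes, by distance from the start of the gene in its own direction (horizontal axis, kb), with gene bodies as grey bars, gains in red, losses in blue, larger points for larger differences and black outlines for the 9 member regions. Gains appear only on the lines of Igfals, Insr and Irs2, and the line of Igf1 is empty.

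The ligand genes had no region of their own. For Igf1, the main hepatic growth factor of the axis, no region lay within 150 kb. For Igf2, a fetal growth factor, 4 regions lay within 150 kb, all downstream of the gene, on the side of the imprinted H19. All 4 were losses, the usual direction in the table, where gains made up 14.9%. The nearest, listed under Mir483, was 13534 bp beyond the 3′ end and carried a difference of -28.2 points with 3 DMCs among 4 cytosines. A second region between Igf2 and H19 carried -22.3 points and lay 21754 bp upstream of the H19 start. A region listed under Mir675 carried -30.5 points and one under Mrpl23 -25.4 points. The table lists only regions of at least 20 points, so a gene without a region may have been unmeasured, or may have differed by less.

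The reference gives the number of CCGG sites for MspI in each gene body, though not which of them were covered by reads. Igf1 holds 25 sites in 78783 bp, Igfbp3 26 in 9413 bp and Igf2 56 in 16049 bp, while Igfbp1 and Igfals, which have a region, hold 5 in 4760 bp and 12 in 4168 bp. A region lay inside 7 of the 10 genes, against 16.1% of all protein-coding genes and 19.4% of those at least as long as Igfals, the shortest of the 10 with 4168 bp. The 10 genes differ widely in length, up to 281412 bp and 257 CCGG sites in Igf1r, so their count cannot be read against that share alone. The genes were also chosen with earlier results of these data known, which limits this comparison further.

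Among the receptors, Insr had gained methylation and Igf1r and Igf2r had lost it. Insr encodes the insulin receptor, and its region of 365 bp at chr8:3270115-3270479 lay in intron 1, 9138 bp downstream of the TSS, with 32.8 points and 9 DMCs among 15 cytosines. Of the gains in the table, 70.4% were smaller. The only other region within 150 kb of Insr was upstream, 37588 bp before the gene and listed under A430078G23Rik, and it ran the other way, with -39.0 points and all 8 cytosines called as DMCs.

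Igf1r, which encodes the receptor that binds Igf1 and Igf2 with high affinity, had 2 listed regions, both far from its TSS. The one upstream, chr7:67893379-67893611, lay in intergenic sequence 58646 bp before the TSS and carried -27.8 points with 4 DMCs among 8 cytosines. The one in intron 2, chr7:68012184-68012297, lay 59927 bp downstream and carried -24.3 points with 2 DMCs among 4 cytosines. Igf1r is the longest of the 10 genes and has the most CCGG sites, yet only 1 region lay in it.

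Igf2r encodes a receptor that takes up Igf2 and carries it to lysosomes for breakdown. Its region of 226 bp at chr17:12726190-12726415 was listed under Airn, the non-coding antisense RNA of the locus, but lay outside Airn, 14896 bp before its start. By position it spans 60 bp of intron 8 and 166 coding bp of exon 9 of the 48 exons of Igf2r, 43291 bp downstream of the Igf2r TSS. Its -20.6 points were close to the smallest difference the table lists, and 1 of 5 cytosines was a DMC, the lowest share among the 9 regions.

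The receptor substrates were split. Irs1, the substrate through which both receptors signal in many tissues, had a region of 732 bp at chr1:82288798-82289529, all of it coding, in exon 1 of 2 and 1910 bp downstream of the TSS. It covered 19.8% of the coding length and carried -28.1 points. With 43 cytosines (75.4% of the 57 possible), it held the most of any of the 6 losses, and 99.1% of the regions in the table had fewer. Of the 43, 24 (55.8%) were DMCs. No other region lay within 150 kb of Irs1.

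Irs2, a main substrate of the insulin receptor in liver, had the largest difference and 2 regions of opposite direction. The gain, chr8:10986390-10986513, was listed under 9530052E02Rik but lay within the 3′ UTR of Irs2, in exon 2 of 2, 22416 bp downstream of the Irs2 TSS. All of its 11 cytosines, of 12 possible, were DMCs, with 51.4 points, and 95.8% of the gains in the table were smaller. A second gain, 27400 bp beyond the 3′ end of Irs2 and listed under 3930402G23Rik, carried 46.2 points with all 6 cytosines called as DMCs. The loss listed under Irs2, chr8:11156166-11156334, lay in intergenic sequence 147736 bp upstream of the listed TSS and carried -28.7 points with 2 DMCs among 4 cytosines. By gene name alone, Irs2 would thus appear with a loss only.

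**Figure D3:**
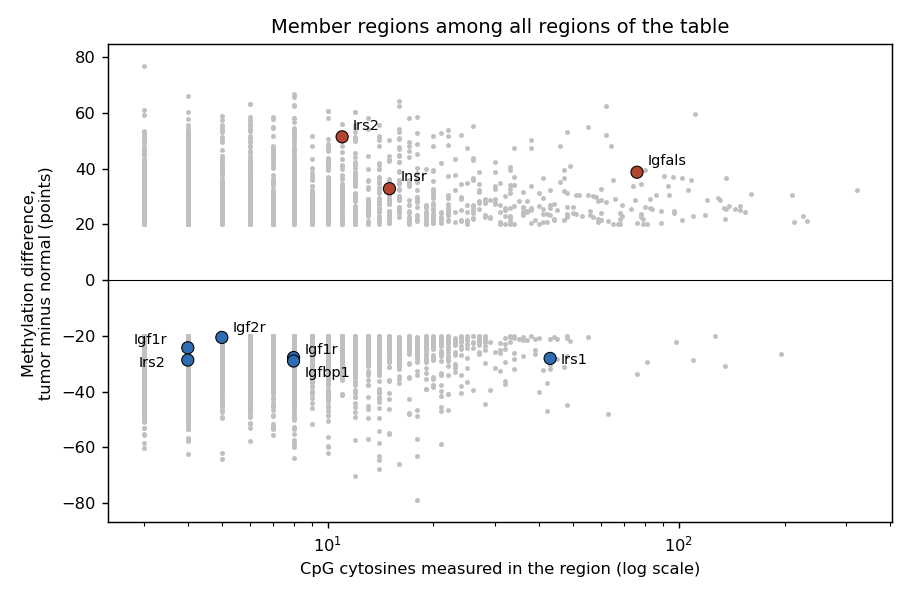
Methylation difference (vertical axis, tumor minus normal, percentage points) against the number of CpG cytosines measured (horizontal axis, log scale) for all regions of the table in grey and for the 9 member regions in red (gains) and blue (losses). Igfals with 76 cytosines and Irs1 with 43 lie far to the right, and the other 7 hold from 4 to 15.

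Set beside the whole table, the 9 regions had a median difference of -24.3 points, and all 14176 regions one of -23.9 points. Gains made up 14.9% of the table, 23.5% of its regions inside protein-coding genes and 8.03% of those outside. Of the 9 regions, 7 lay inside their gene and 3 of these were gains, while the 2 outside were losses. The study took 30 points as the least difference of a differentially methylated region, which 23.5% of the table reached, with 5.57% being gains and 18.0% losses of that size. All 3 gains of the axis reached it, against 37.3% of the gains in the table, and none of the 6 losses did, against 21.1% of the losses. With 9 regions, these counts describe the genes and allow no statement on the axis as a group.

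The 9 regions covered 3846 bp and 174 cytosines, of which 115 (66.1%) were DMCs, against 53.5% over the table. The 3 gains held 102 cytosines with 77 DMCs (75.5%), and the 6 losses 72 with 38 (52.8%). Igfals alone supplied 57 of the 77. In other respects they were near the middle of the table: the median GC content was 54.4% against 52.2%, the median CpG ratio 0.439 against 0.424, and the median share of bases in repeats 9.44% against 10.4%. The median span was 226 bp against 158 bp. A CCGG motif, which is its own reverse complement and the site that MspI cuts, stood at one end at least of all 9. The same held for 12618 of the 14176 regions in the table. It stood at both ends of 5 (55.6%, against 41.4% over the table). Within 2000 bp of a TSS, the study's window for promoters, lay 2 of the 9, Igfals and Irs1, both downstream of the TSS. The share of all regions in that window was not computed, so whether 2 of 9 is usual cannot be told here.

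The rest of the pathway was read from lists of another 87 genes. Of these, 36 had a region listed under them, 79 regions in all. The share of all genes with a listed region was not computed. Whether 36 of 87 is usual therefore cannot be told here, nor can it for the counts of genes in each list below. There were 22 gains and 57 losses (27.8% gains, against 14.9% of the table). At 30 points or more there were 8 gains and 15 losses, where 5.57% of the table were gains and 18.0% losses of that size. The median difference was -23.0 points. Dok5, an adaptor of the insulin receptor, had 18 of the regions, all losses, from -20.4 to -39.8 points, the last of them 447618 bp downstream of its TSS. Without Dok5 the lists had 22 gains and 39 losses (36.1% gains). Dok5 held only losses, so leaving it out can only raise this share. Genes with many gains stayed in, such as Ptpn1 (5 gains, 2 losses) and Pik3r1 (4 gains, 0 losses). Inside the genes by position lay 36 regions of 24 genes, 14 gains and 22 losses (38.9% gains, against 23.5% of the regions inside protein-coding genes). Of all protein-coding genes, 16.1% had a region inside, without regard to length.

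In the list of 26 genes of the PI3K and AKT arm, 8 had listed regions, with 8 gains and 7 losses and a median of 21.4 points. Gains thus made up 53.3%, against 14.9% of the table, but 4 of the 8 were listed under Pik3r1 and 2 under Rptor. The share therefore rests largely on few genes. Inside the genes of this list by position lay 14 regions, 9 of them gains (64.3%, against 23.5% of the regions inside protein-coding genes). The largest gain there was in an intron of Foxo3, a transcription factor that AKT keeps out of the nucleus (39.6 points, 3 of 3 cytosines). Inside Gsk3b, the kinase that restrains glycogen synthesis, an intronic region listed under BC031361 gained 37.2 points, with 12 DMCs among 14 cytosines. Pik3r1, the regulatory subunit through which PI3K docks on Irs proteins, had 4 regions, all gains, from 23.2 to 34.5 points. The largest lay outside the gene, 148867 bp upstream of the listed TSS. The other 3 lay inside the gene, and 2 of them 105 and 845 bp downstream of the listed TSS. The remaining region inside the gene lay 28187 bp upstream of that TSS, which is therefore not the outermost start of Pik3r1.

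Among 11 negative regulators, 7 had listed regions, with 6 gains and 11 losses (35.3% gains, against 14.9% of the table). Ptpn1, a phosphatase that dephosphorylates the insulin receptor, had 7 of these, 5 gains and 2 losses, none inside the gene. The share of gains in this list therefore rests largely on Ptpn1. Its regions included gains of 53.6 and 43.1 points, 90859 and 90171 bp upstream of the TSS, and a difference of -39.6 points at 67852 bp upstream. Socs6, a suppressor of cytokine signalling, had 5 losses, the largest of -36.3 points and 872741 bp from its TSS. Of 16 other substrates and adaptors, 6 had listed regions, with 2 gains and 21 losses (8.70% gains), and Dok5 accounts for 18 of the losses.

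The 6 other binding proteins had 2 gains and 4 losses (33.3% gains, against 14.9% of the table). The 5 proteases and inhibitors that act on binding proteins had 5 losses from 4 genes and no gain, near what the table's share gives for so few regions. Igfbp5, a binding protein held in the extracellular matrix, carried -36.3 points upstream of the gene and -30.5 points in its 3′ UTR. Igfbp2, the other main binding protein of liver, had both gains of the binding protein list. The gain of 23.2 points lay in an intron of the gene. That of 25.7 points lay outside Igfbp2, 34085 bp upstream of the TSS, in an intron of Gm30847. In the list of ligands and imprinted neighbours, 2 of 4 genes had 5 regions, all losses under 30 points, again beside 14.9% gains in the table. Of the 5, 4 were listed under the insulin gene Ins1 at 120936 bp or more from its TSS. The values of Pik3r1, Igfbp5 and Igfbp2 and of the genes in the next paragraph are given as examples chosen after their values were seen.

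In the growth hormone arm, which drives Igf1 and Igfals in hepatocytes, 3 of 7 genes had a region. Ghr, the growth hormone receptor, gained 30.7 points in an intron and Stat5a, a transcription factor downstream of it, 26.2 points in coding sequence, while Gh itself carried -22.0 points upstream. Of 8 insulin targets of liver, 3 had 5 listed regions. The largest gain was listed under Pck1, the rate-limiting enzyme of gluconeogenesis, but lay over the non-coding genes Gm36691 and Gm36749, 9774 bp upstream of the TSS (51.6 points, 9 of 9 cytosines). Fasn, the fatty acid synthase that insulin induces, carried -32.0 points over 43 cytosines, 30 of them DMCs, in its exons and introns. Neither Insrr, a relative of the insulin receptor, nor any of the 3 genes for IGF2 mRNA-binding proteins had a listed region, and Igf2bp1 had one inside its 3′ UTR at -23.2 points, listed under Mir3063.

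**Figure D4:**
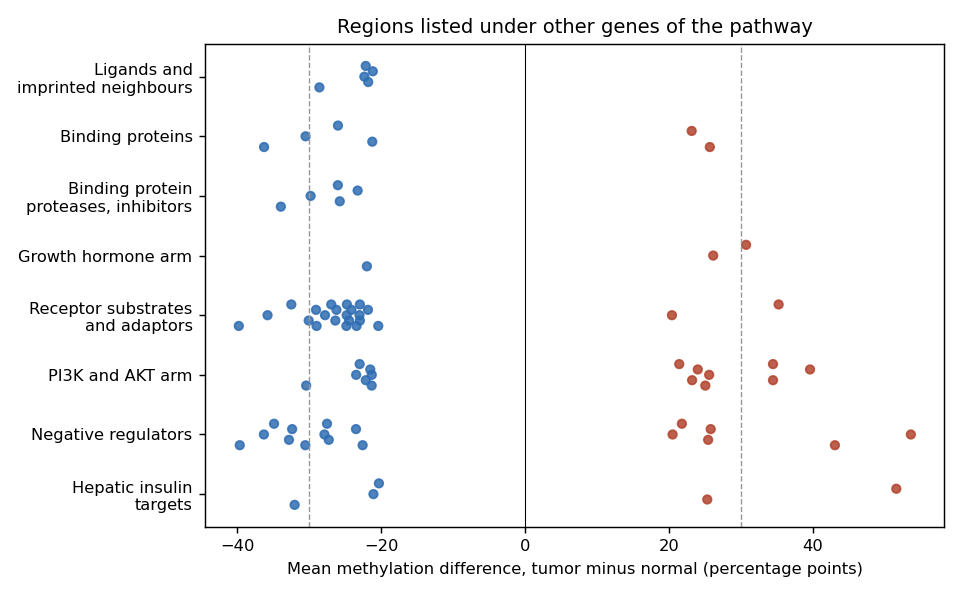
Methylation difference (horizontal axis, tumor minus normal, percentage points) of the 79 regions listed under other genes of the pathway, 1 point per region, by list, gains in red and losses in blue, with dashed lines at 30 points in either direction. The list of the PI3K and AKT arm has 8 gains and 7 losses, while that of substrates and adaptors has 2 gains and 21 losses.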

How the data were processed

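RRBS reads of 6 liver samples, 3 normal and 3 tumor, had been trimmed with Trim Galore and aligned as unique pairs to mm10 with Bismark. The authors counted C and T at each CpG cytosine with methylKit, strands apart, and called DMCs by logistic regression (q-value below 0.01, at least 10 reads, at least 25 points). Regions were built with eDMR, and the nearest RefSeq TSS was found with bedtools 2.25.0, per the submitters' processing notes. For the other tools no version is given here. The authors' deposited table gives 1 difference in percent methylation per region, in percentage points, all of at least 20, with at least 3 cytosines and 1 DMC. It pools the samples, so averaging over sites, depth and outlying animals cannot be examined. The labels name separate samples without saying whether tumor and normal tissue shared an animal.

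Starts were counted from 0 (100% fell in a CpG after adding 1, 13.9% as given), so 1 was added. Regions were annotated from RefSeq GRCm38 with python 3.11.15, pandas 2.3.3 and samtools 1.23.1, and the assignment to genes was tested on simulated regions. The listed TSS can differ from the RefSeq start used for genes (Irs2 147736 against 147237 bp). A region inside a gene but listed under another was added by position.

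All 9 member regions are named. Of the other pathway genes, the 8 largest regions of at least 30 points are named, and others as stated. The likest regions to Igfals were the 3 nearest in cytosines among gains within 5 points. Members, the 10 lists and these rules were chosen with earlier results of these data known. Alternatives were other minimum differences, cytosines, DMCs, TSS windows and gene assignments, and leaving out the genes with the most regions. Counts were set beside the whole table, without tests.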

Additional observations from a re-analysis of the deposited data

How the results depend on the processing

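The counts of 3 gains and 6 losses, the median of -24.3 points, the 3 regions at 30 points and the 2 near a TSS were recomputed with other settings. In 41 of the values obtained the count or median stayed within 1.5 times its first value, with the same sign, 10 moved further and 4 changed sign. A minimum of 30 points left 0 losses, a median of 38.7 points and 1 region near a TSS, and one of 40 points left 1 gain, 0 losses, a median of 51.4 points and 0 regions near a TSS. Requiring 10 cytosines left 1 loss (Irs1) and a median of 35.8 points, and requiring 3 DMCs left 3 losses and a median of 2.52 points. Each of these settings keeps fewer regions by construction, and those removed by 30 points, 10 cytosines or 3 DMCs were all losses. With 25 points in place of 30 there were 7 regions at the threshold, and with 40 points 1. Within 1000 bp of a TSS there were 0. Assignment by listed name only, by position only or within 50 kb of the TSS, and leaving out Igf1r or Irs2, which have the most regions, kept each value within 1.5 times (the count near a TSS was not recomputed for the 50 kb rule). No paired analysis was possible because the table holds 1 pooled value per region and none per sample. The sign of the median thus depends on the minimum set for regions. The unknown depth and the lack of values per animal leave the error of every difference unknown.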
